A study of Mus musculus with 12 samples.

Results

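Quadriceps muscle of dystrophic mice given spironolactone plus lisinopril was compared with quadriceps of untreated dystrophic mice. The 6 arrays of the comparison, 3 in each group, were chosen by their titles from the 12 arrays of the series, and each array held the RNA of a separate biological replicate according to the labels. All mice, controls included, were 6-week-old C57BL/10 males that were utrn+/-;mdx, so the controls carried the same alleles. The mdx allele is a point mutation that stops dystrophin translation, and the other allele removes 1 of the 2 copies of utrophin, the dystrophin-related protein that partly stands in for it. Medicated pellets supplied 100 mg/kg spironolactone and 20 mg/kg lisinopril each day between 4 and 6 weeks of age, while untreated mice ate normal chow. Another 3 mice received eplerenone at 200 mg/kg per day with the same dose of lisinopril in pellets, and 3 received prednisolone at 1.5 mg/kg per day in drinking water. The set held no healthy mice and no mice on pellets without drug, so drug and pellet cannot be told apart. No mice received spironolactone alone or lisinopril alone, so the effects of these drugs cannot be told apart either. The hour of dissection was not given in the labels.

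Lisinopril blocks angiotensin-converting enzyme, which makes angiotensin II. Spironolactone blocks the mineralocorticoid receptor, a ligand-activated transcription factor that binds aldosterone and also glucocorticoids, and is known to bind other steroid receptors more readily than eplerenone does. Dystrophic muscle goes through rounds of fibre damage, entry of neutrophils and macrophages, and regeneration from satellite cells, and at this age these rounds overlap. Many genes named below follow time of day in muscle, where the clock factors Arntl and Clock drive period, cryptochrome and nuclear receptor genes that feed back on them.

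Expression was read as log2 signals of 30412 transcript clusters (the array's gene-level units) that the platform annotation pairs with exactly 1 symbol. The arrays carried muscle RNA: the median signal of 12 skeletal muscle genes such as Acta1, Ckm and Ttn lay between 19.03 and 19.33 in the 6 arrays, and that of 12 genes of heart, liver, kidney and other organs between 4.94 and 5.20. Dmd and Utrn signals check no genotype here, since all groups share both alleles. Differences below are spironolactone plus lisinopril minus untreated on the log2 scale, ± SE from a limma fit over all 12 arrays, with n = 3 arrays per group. Adjusted p-values are from limma with Benjamini-Hochberg adjustment over the 30412 clusters, at a threshold of 0.05. With 3 arrays against 3, an exact permutation test cannot give a p below 0.1.

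Of the named genes past the threshold, Thbs1, Zfp36, Il6 and Cd14 fell most in treated muscle. Those that rose were the clock genes Dbp, Nr1d1 and Per3 and the syntrophin gene Sntb1. In all, 25 clusters (0.0822%) passed: 19 (0.0625%) were lower and 6 (0.0197%) higher, and 14 of the 25 differed by at least 2-fold. In each of the 25 the 3 treated arrays lay beyond all 3 untreated arrays, whereas 3981 clusters (13.1%) were non-overlapping and lower and 2235 (7.35%) non-overlapping and higher over the whole table. That direction split depended on the scaling, with 2070 lower and 2740 higher after quantile normalization and 2466 lower and 3531 higher with array medians made equal. A fold of 2, the size the series design names, was reached by 174 clusters (0.572%) that were lower and 67 (0.22%) that were higher. The unadjusted p was under 0.05 for 4929 clusters (16.2%), and the median difference over all tested clusters was -0.04, with 40.8% of them above 0.

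The number of calls rested on single arrays and on the spread shared over 4 groups. It was 534 without untreated array 1, 11 without untreated array 2 and 0 without untreated array 3. It was 0 without spironolactone plus lisinopril array 1, 1 without array 2 and 165 without array 3. Fitting the 2 groups alone gave 0 calls, with 3853 clusters at an unadjusted p under 0.05. The 20 named genes past the threshold kept their sign in every one of the 15 or 16 alternatives that tested them and passed in 6 to 10.

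**Figure D1:**
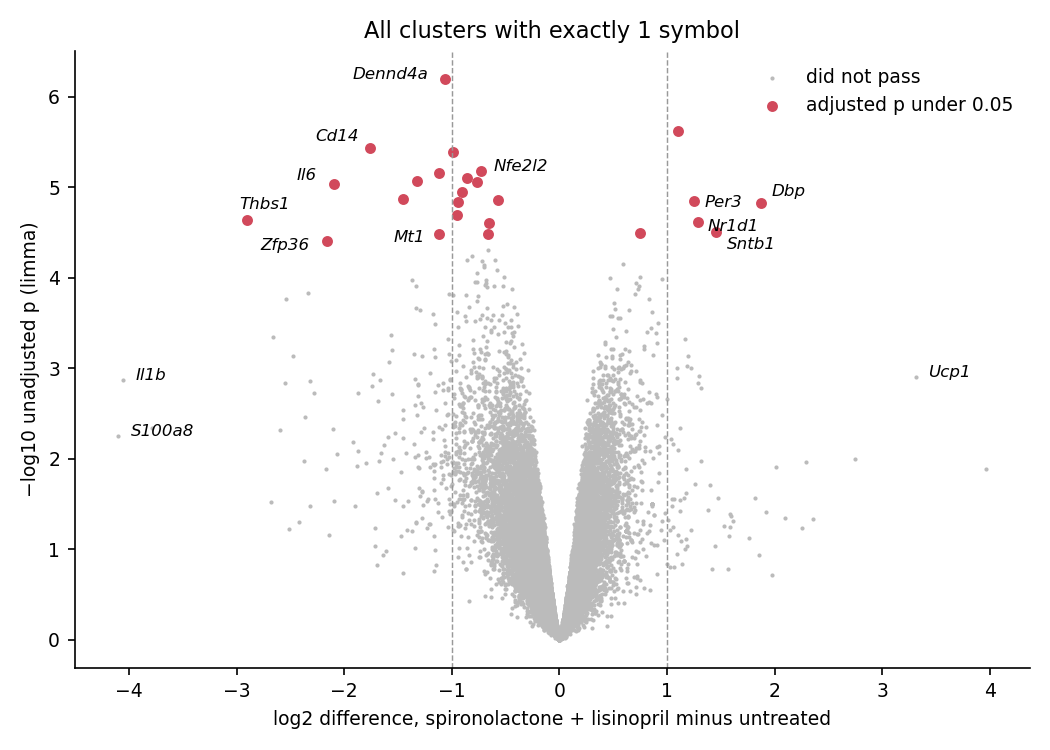
Difference (x axis, log2, spironolactone plus lisinopril minus untreated) against the unadjusted limma p (y axis, -log10) for 30412 clusters, with the 25 past the adjusted threshold in red and dashed lines at a fold of 2. Most clusters past the threshold lie on the left, and Il1b, S100a8 and Ucp1 have larger differences than most of them without passing.

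The clock genes Dbp, Per3 and Nr1d1 rose, and Nfil3 fell. Dbp encodes a circadian transcription factor that binds D-box elements. Its signal was 9.66, 8.76 and 8.96 in untreated arrays 1 to 3 and 11.04, 11.15 and 10.80 in treated arrays 1 to 3. Every treated array was well above the highest untreated array, a rise of 1.87 ± 0.25 (3.66-fold, limma adjusted p = 0.0282). Nfil3 encodes the repressor that competes with Dbp for the same element. It read 7.39, 7.31 and 7.43 untreated and 6.29, 6.56 and 6.71 treated, a difference of -0.86 ± 0.11 (adjusted p = 0.028). The untreated Nfil3 values lay close together and all above the treated ones.

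Per3, a period gene, was at 7.38, 6.69 and 6.95 in untreated muscle and at 8.28, 8.37 and 8.12 in treated muscle, a difference of 1.25 ± 0.17 (adjusted p = 0.0282). Nr1d1 (Rev-erb alpha), the nuclear receptor that represses Arntl, was at 11.19, 10.92 and 10.41 and rose to 12.11, 12.26 and 11.99, a difference of 1.28 ± 0.18 (adjusted p = 0.0384). Untreated array 1 was the highest untreated array for Dbp, Per3 and Nr1d1, and against that array alone the differences were 1.34, 0.88 and 0.93.

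The Per3 promoter is printed because it holds the D-box, the element that Dbp and Nfil3 share. The stretch is the 250 bases before the RefSeq start (GRCm38.p6, chr4:151044666-151044915, minus strand), with the D-box TTATGTAA in capitals.
Per3: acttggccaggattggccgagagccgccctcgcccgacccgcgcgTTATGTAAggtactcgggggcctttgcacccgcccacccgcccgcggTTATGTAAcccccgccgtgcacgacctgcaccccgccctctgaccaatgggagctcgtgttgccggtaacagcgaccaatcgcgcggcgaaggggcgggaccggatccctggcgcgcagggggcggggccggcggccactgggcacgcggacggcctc
The 2 D-boxes begin 205 and 158 bases before the start. Among 32851 windows of the same length, on both strands, 0.819% hold TTATGTAA. The 250-base windows of Dbp, Nr1d1 and Nfil3 hold neither TTATGTAA nor the E-box CACGTG, which is in 6.02% of windows. A match is only a description of letters, and no binding was measured.

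Beyond these genes, the clock lists held members on both sides of 0. The hour of dissection was not given in the labels, so time of day and treatment cannot be told apart for clock genes. Of 14 measured genes of the core loop, Per3 and Nr1d1 rose and 12 did not pass, with a median of 0.14 (0.02 to 0.23 over the alternatives). Npas2, a partner of Arntl, was at 8.22, 8.12 and 8.08 untreated and at 6.70, 6.97 and 7.71 treated (-1.01 ± 0.24, adjusted p = 0.151). Arntl was at 8.68, 8.92 and 8.93 against 7.74, 7.71 and 8.55 (-0.84, adjusted p = 0.157). In both genes the treated arrays lay below the untreated ones, with treated array 3 the nearest. Nr1d2, the paralogue of Nr1d1, was at 0.76 (adjusted p = 0.181) without overlap, and Per2 at 0.91 (adjusted p = 0.194) with overlap. Per1, a period gene that glucocorticoids also induce, was at -0.63 ± 0.55 (adjusted p = 0.572), with untreated array 1 (10.82) far above untreated arrays 2 and 3 (8.90 and 8.81). Clock (-0.09), Cry1 (0.06) and Cry2 (0.22) were near 0. Of 11 clock output factors Dbp rose, Nfil3 fell and 9 did not pass. The D-box factors Hlf (0.85, adjusted p = 0.108) and Tef (0.79, adjusted p = 0.132) were above all untreated arrays in every treated array.

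**Figure D2:**
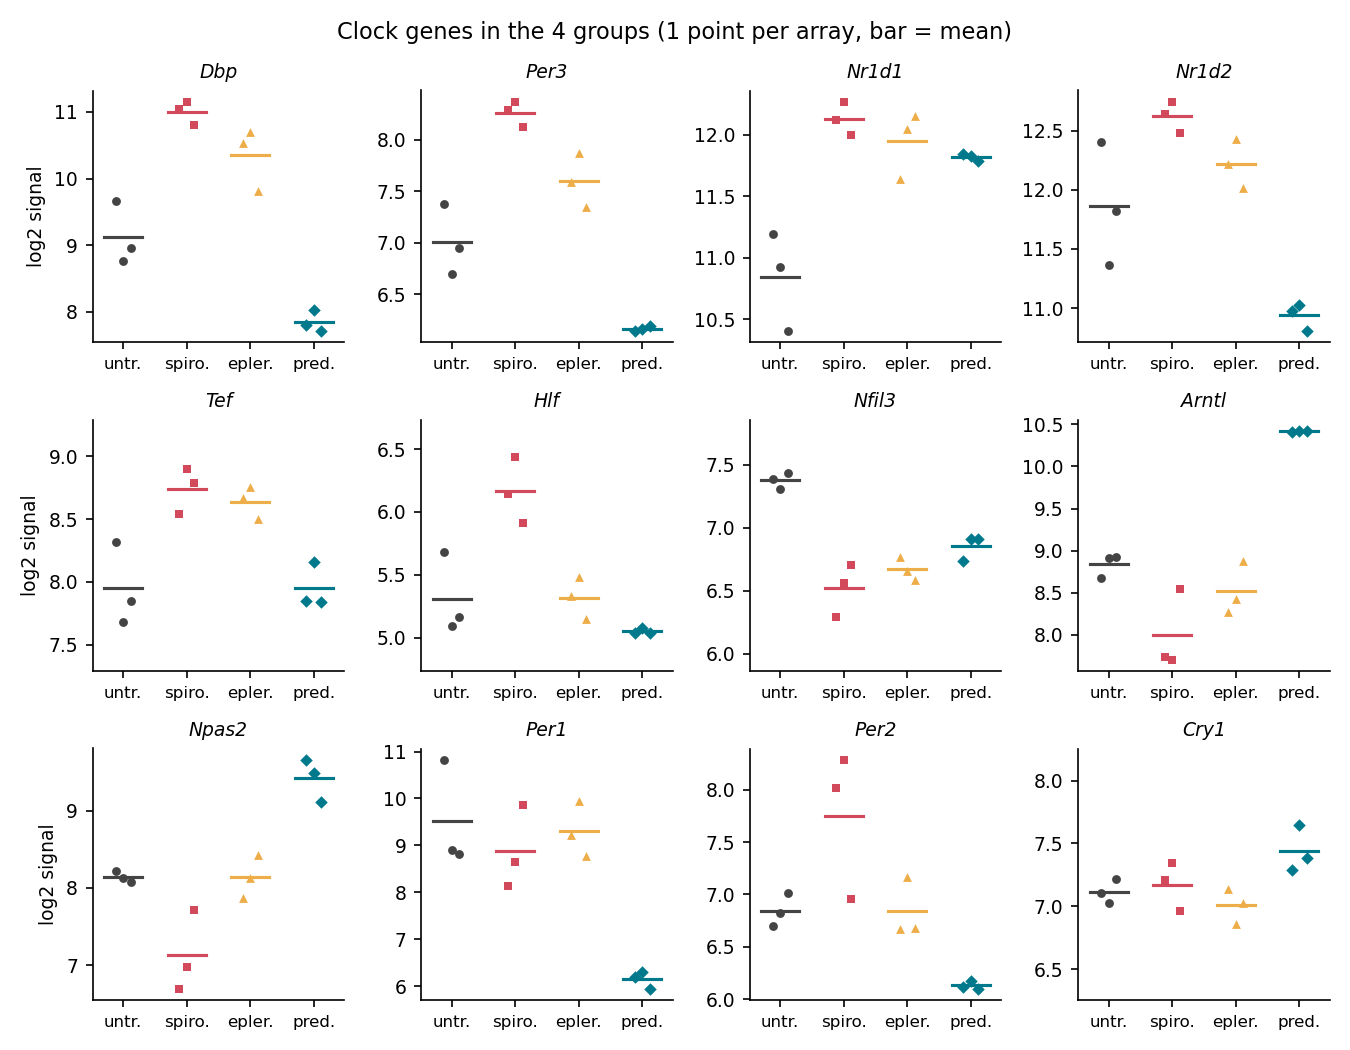
Signal (y axes, log2) of 12 clock genes in the arrays of the untreated group and of the 3 treatments, 1 point per array with the group mean as a bar and a separate scale for each gene. In Dbp and Per3 the spironolactone arrays are the highest and the prednisolone arrays the lowest, while in Arntl and Npas2 the prednisolone arrays are the highest.

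Messages for the secreted proteins Thbs1 and Il6 and the surface proteins Cd14, Plaur and Cd80 fell, Thbs1 the most of all named genes past the threshold. Thbs1 encodes thrombospondin-1, a matricellular glycoprotein released at injury that can activate transforming growth factor beta. It was at 14.21, 15.07 and 15.94 in untreated arrays and at 12.40, 12.48 and 11.63 in treated arrays, a difference of -2.90 ± 0.41 (7.47-fold lower, adjusted p = 0.0384). The untreated arrays spread over more than a log2 unit, yet the lowest of them was above every treated array. Measured from untreated array 1 alone, the lowest of the group, the difference was -2.04.

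Il6, a cytokine made by immune cells and by muscle itself, was at 6.47, 6.50 and 7.55 untreated and at 4.52, 4.56 and 5.18 treated. It fell by 2.09 ± 0.27 (4.26-fold lower, adjusted p = 0.028). Treated arrays 1 and 2 were below 4.61, the lower quartile of mean signals over the tested clusters, so the size of the fold rests on dim signals. Cd14, the lipopolysaccharide co-receptor of monocytes and macrophages, was at 8.31, 9.15 and 8.36 against 6.75, 6.91 and 6.88, a difference of -1.76 ± 0.21 (adjusted p = 0.028). Plaur, the urokinase receptor, fell by 1.45 ± 0.20 (adjusted p = 0.0282), and Cd80, a costimulatory ligand on antigen-presenting cells, by 1.32 ± 0.17 (adjusted p = 0.028). Both were lowest in the untreated group in array 1 (8.36 for Plaur, 8.04 for Cd80), and from that array alone the differences were -1.05 and -0.82.

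Zfp36, Csrnp1, Ell2 and Nfe2l2, which act in the nucleus or on messages, fell. Zfp36 (tristetraprolin) binds AU-rich elements and speeds the decay of cytokine messages. It was at 9.60, 9.27 and 10.25 untreated and at 6.91, 7.36 and 8.37 treated, a difference of -2.16 ± 0.33 (4.48-fold lower, adjusted p = 0.0482). Treated array 3 was the highest treated array and still below every untreated array. Of 9 measured genes of message decay, Zfp36 was the single call and 4 lay above 0, with a median of -0.09 that was 0.09 from untreated array 1 alone; Zfp36l1 (-0.49) and Zc3h12a (-0.39) did not pass.

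Csrnp1, a nuclear protein of the immediate-early class, was at 5.65, 5.70 and 5.94 untreated and at 4.88, 4.69 and 5.02 treated (-0.90 ± 0.12, adjusted p = 0.0282). Ell2, an elongation factor of RNA polymerase II, fell by 1.12 ± 0.14 (adjusted p = 0.028), alone among 13 measured genes of its family and partners. That list was chosen with earlier results of these data known, so the count only describes it. Nfe2l2 (Nrf2), the factor that switches on antioxidant genes, was at 10.30, 10.61 and 10.40 against 9.73, 9.73 and 9.66, a difference of -0.73 ± 0.09 (adjusted p = 0.028). It was the single call among the 24 measured genes of its list, with a median of -0.09. Hmox1 (-1.17 ± 0.39, adjusted p = 0.208) overlapped between groups and was at -0.14 from untreated array 1 alone.

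The promoters of Zfp36 and Il6 are printed because they hold elements known to answer growth and stress signals, in capitals: the serum response element core (CArG) in Zfp36 and the AP-1 element TGACTCA, here as its reverse complement TGAGTCA, in Il6. Both are the 250 bases before the RefSeq start in GRCm38.p6, chr7:28379229-28379478 (minus strand) and chr5:30012864-30013113 (plus strand).
Zfp36: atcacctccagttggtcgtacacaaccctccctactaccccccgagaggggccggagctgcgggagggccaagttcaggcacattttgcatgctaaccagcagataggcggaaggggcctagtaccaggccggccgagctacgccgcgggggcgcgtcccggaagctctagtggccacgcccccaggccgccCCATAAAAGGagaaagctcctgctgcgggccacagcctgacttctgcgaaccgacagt
Il6: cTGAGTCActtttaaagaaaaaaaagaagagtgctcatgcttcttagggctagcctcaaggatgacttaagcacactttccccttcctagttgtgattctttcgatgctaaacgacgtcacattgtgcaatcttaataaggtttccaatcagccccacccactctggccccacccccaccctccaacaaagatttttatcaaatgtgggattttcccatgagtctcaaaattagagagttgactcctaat
The CArG core begins 58 bases before the Zfp36 start and occurs in 1.47% of 32851 windows on both strands. The AP-1 element begins 249 bases before the Il6 start and occurs in 4.46% of windows. Csrnp1 has 4 annotated starts, of which the fourth has AP-1 elements beginning 102 and 14 bases before it. The CRE TGACGTCA, in 1.55% of windows, was found in none of the 3 genes' windows.

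The other falls were Dennd4a, Trim25, Mt1, Mcl1, Slc20a1 and Fam107b. Dennd4a, an exchange factor for Rab GTPases, had the smallest p of all clusters: 9.43, 9.70 and 9.45 untreated against 8.48, 8.40 and 8.50 treated (-1.07 ± 0.10, adjusted p = 0.0194). Trim25, a ubiquitin ligase of the interferon response, was at 10.79, 10.46 and 10.55 against 9.65, 9.37 and 9.91 (-0.96 ± 0.13, adjusted p = 0.0368). In both genes the groups were far apart compared with their spread. Mt1, a metal-binding metallothionein, fell by 1.12 ± 0.17 (adjusted p = 0.0419), and Mcl1, an inhibitor of apoptosis, by 0.66 ± 0.10 (adjusted p = 0.0419). The phosphate transporter gene Slc20a1 fell by 0.65 ± 0.09 (adjusted p = 0.0384) and Fam107b, an actin-associated protein gene, by 0.57 ± 0.08 (adjusted p = 0.0282).

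Sntb1 was the named gene that rose outside the clock lists. It encodes beta-1-syntrophin, an adaptor of the dystrophin complex, and read 10.83, 10.63 and 10.41 untreated against 12.67, 11.66 and 11.91 treated (1.46 ± 0.22, 2.74-fold, adjusted p = 0.0419). Treated array 1 was the highest, and all treated arrays were above all untreated arrays. Of 18 measured genes of the dystrophin complex no other member passed, and their median was 0.15 (-0.01 to 0.24 over the alternatives). Of the 18, 13 lay above 0 and 5 below. Above 0 were Dag1 (0.38), the sarcoglycans Sgcd (0.48), Sgcb (0.38) and Sgca (0.36), and Dmd (0.40 ± 0.18, adjusted p = 0.301), among others. Among those below, Sntb2, a close paralogue of Sntb1, was at -0.47 (adjusted p = 0.228) with overlap. The syntrophin gene Sntg1 was at -0.27 (adjusted p = 0.183) and lower in every treated array. Utrn was at 0.13 ± 0.11 (adjusted p = 0.568).

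**Figure D3:**
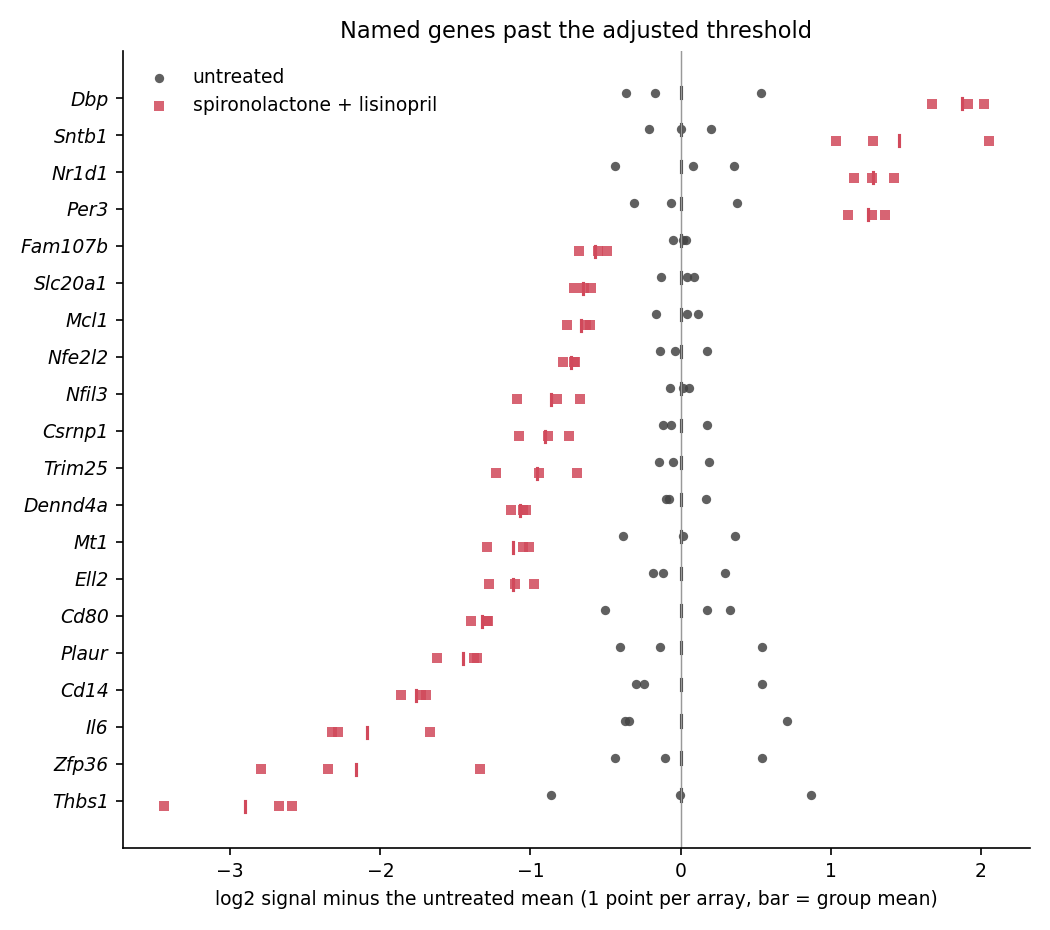
Signal of each array minus the untreated mean (x axis, log2) for the 20 named genes past the threshold, with untreated arrays as dark circles, spironolactone plus lisinopril arrays as red squares and group means as bars. In every gene the 3 red squares lie on one side of all 3 circles, with Thbs1, Zfp36 and Il6 farthest to the left and Dbp farthest to the right.

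The other 5 calls carried predicted-gene or small RNA symbols, 2 higher and 3 lower. One of the rises was Mir99a, a microRNA gene, described here after its values were seen. It was at 5.05, 5.08 and 4.90 untreated and at 6.09, 5.88 and 6.38 treated (1.11 ± 0.12, adjusted p = 0.028), and the arrays do not tell precursor from mature RNA. Its neighbours are shown because they come from the same host transcript, Mir99ahg. The mature sequences are from RefSeq (GRCm38.p6), with the seed, bases 2 to 8, in capitals.
miR-99a-5p (chr16:77598940-77598961, plus strand): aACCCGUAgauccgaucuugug
let-7c-5p (chr16:77599672-77599693, plus strand): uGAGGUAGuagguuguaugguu
miR-125b-5p (chr16:77646279-77646300, plus strand): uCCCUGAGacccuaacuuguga
The 3 seeds differ. Mir99ahg was at 0.50 ± 0.11 (adjusted p = 0.134), Mirlet7c-1 at 0.91 ± 0.33 (adjusted p = 0.237) with overlap between groups, and Mir125b-2 at 0.12 (adjusted p = 0.753). Mirlet7c-1 was at 6.18 in untreated array 1 against 5.12 and 4.66 in untreated arrays 2 and 3, and from array 1 alone its difference was 0.06.

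A further 119 clusters differed by at least 2-fold without overlap and did not pass. The 20 of them with the smallest p that carry gene names included 18 that were lower. Among these were Dusp5, a phosphatase of Erk (-1.36, adjusted p = 0.0755), Nfkbia, the inhibitor that holds NF-kappa B in the cytoplasm (-1.33, adjusted p = 0.0755), and the stress-induced factor Cebpd (-2.34, adjusted p = 0.0803). Nfkbia read 11.30, 11.03 and 11.10 untreated and 9.53, 9.67 and 10.24 treated. Hdc, which makes histamine (-2.54), Ptgs2, the inducible cyclooxygenase (-2.47), and Tnfaip6, a hyaluronan-binding protein of inflammation (-2.66), had wide spreads among untreated arrays. Ptgs2 was at 7.30 in untreated array 1 against 10.14 and 9.01 in arrays 2 and 3. The hyaluronan synthase Has1 (-1.30), the insulin receptor substrate Irs2 (-1.15), the metalloproteinase Adamts1 (-1.35) and the metallothionein Mt2 (-1.34) were also in this set, as were Cyp1b1 (-1.56), Tmem252 (-1.57), Litaf (-1.18) and Ifi204 (-1.16). So were Ifitm1 (-1.02), Ms4a4a (-1.27), Mxd1 (-1.15) and Arid5b (-1.01). The 2 that were higher were Hoxc8 (1.20, adjusted p = 0.136) and Sec14l5 (1.16, adjusted p = 0.121).

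All gene lists were chosen with earlier results of these data known, so counts of calls in a list are descriptions only. By gene list, immediate-early factors had a median of -0.90 against -0.04 over all clusters. Of 27 measured, 26 lay below 0, 7 were non-overlapping and lower, and Csrnp1 alone fell. Of all tested clusters, 13.1% were non-overlapping and lower and 7.35% non-overlapping and higher, the shares to set beside the list counts below. These shares depended on scaling and on signal. Quantile normalization gave 2070 lower and 2740 higher of 30412. With the dimmer clusters left out, 1175 of 15206 were non-overlapping and lower and 1957 non-overlapping and higher. Nr4a3, an orphan nuclear receptor, was at 10.52, 8.66 and 9.28 untreated and at 6.33, 6.85 and 8.34 treated (-2.31 ± 0.54, adjusted p = 0.151). Fosl2 (-1.87, adjusted p = 0.155) overlapped between groups, and Egr2 (-0.64) and Klf6 (-0.90) did not. Treated array 3 lay above treated arrays 1 and 2 in Nr4a3, Fosl2, Egr2 and Klf6. The list's median deviation from the 12-array mean was 0.29 in that array against -0.49 and -0.36 in the others. Without it the list's median was -0.98, and from untreated array 1 alone it was -0.57.

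Of 33 measured genes of the interferon response, Trim25 fell and 32 did not pass. All 33 were below 0, 17 were non-overlapping and lower, and the median was -0.47. Oas1a, which makes the activator of RNase L, was at 9.08, 9.25 and 9.51 untreated and at 8.61, 8.11 and 8.24 treated (-0.96 ± 0.22, adjusted p = 0.147). Trim30a (-0.93), Stat2 (-0.98) and Zbp1 (-0.71) were likewise lower in every treated array. The median stayed between -0.61 and -0.35 over the alternatives, and was -0.44 from untreated array 1 alone.

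NF-kappa B genes had a median of -0.34, with 19 of 20 below 0 and 12 non-overlapping and lower, and 0 passed. Nfkbiz (-0.72, adjusted p = 0.0657) was the nearest, followed by Nfkbia, the subunit gene Rel (-0.39) and Birc3 (-0.71). In the list for interleukin-6 and Stat3 signalling, Il6 fell and 15 of 16 did not pass, with Pim1 (-1.08), Osm (-0.46) and Jak2 (-0.64) lower in every treated array and Stat3 (-0.79) overlapping. From untreated array 1 alone the medians of these lists were -0.13 and -0.10.

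Cytokines other than Il6 depended on which untreated array was used. Of 39 measured, 35 lay below 0, 4 were non-overlapping and lower and 0 passed, with a median of -0.47. Those 4 are no larger a share than the 13.1% of all clusters that were non-overlapping and lower, a share that depended on scaling and signal. Il1b, the main inflammasome cytokine, was at 8.09, 12.87 and 11.72 untreated and at 6.14, 6.32 and 8.05 treated (-4.05 ± 0.95, adjusted p = 0.151). Untreated array 1 differed from treated array 3 by a few hundredths, and from untreated array 1 alone the difference was -1.25. The list's median was -0.01 from that array alone. Cxcl1 (-1.68), a neutrophil-attracting chemokine, Cxcl14 (-0.90) and Tnfsf11 (-0.45) did not overlap and did not pass.

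Markers of blood-borne cells were examined beside these genes. All 22 neutrophil markers lay below 0, with a median of -1.28, 12 at a fold of 2 or more, 3 non-overlapping and 0 past the threshold. Those 3 are close to the 13.1% of all clusters that were non-overlapping and lower, a share that depended on scaling and signal. Their median level was 5.70, 7.70 and 7.62 in untreated arrays 1 to 3 and between 5.41 and 5.89 in treated arrays. S100a8, which makes a calcium-binding protein abundant in neutrophils, was at 7.14, 12.93 and 12.03 untreated and at 6.05, 7.99 and 5.76 treated (-4.10 ± 1.19, adjusted p = 0.183). Its partner S100a9 was at 6.80, 12.45 and 11.35 against 6.38, 6.72 and 6.13 (-3.79 ± 1.07, adjusted p = 0.181). Untreated array 1 resembled the treated arrays in both, and from it alone the list's median was -0.11.

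Of 32 macrophage and monocyte markers, Cd14 fell, 31 lay below 0 and 7 were non-overlapping and lower, with a median of -0.52 and of -0.18 from untreated array 1 alone. Their median level ran from 11.22 to 12.32 in untreated and from 10.70 to 11.25 in treated arrays. The Fc receptor genes Fcgr3 (-0.90) and Fcgr2b (-0.74) and the adaptor Tyrobp (-0.81) did not pass, and Cd68 was at -0.61 ± 0.36 (adjusted p = 0.413). In bulk muscle, fewer cells of a type and less RNA per cell cannot be told apart. The part of these cells in the falls of Il6, Thbs1, Plaur and Cd80 was not tested. T and NK cell markers (21 measured) and B cell markers (12 measured) each had a median of -0.16 with 0 past the threshold.

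**Figure D4:**
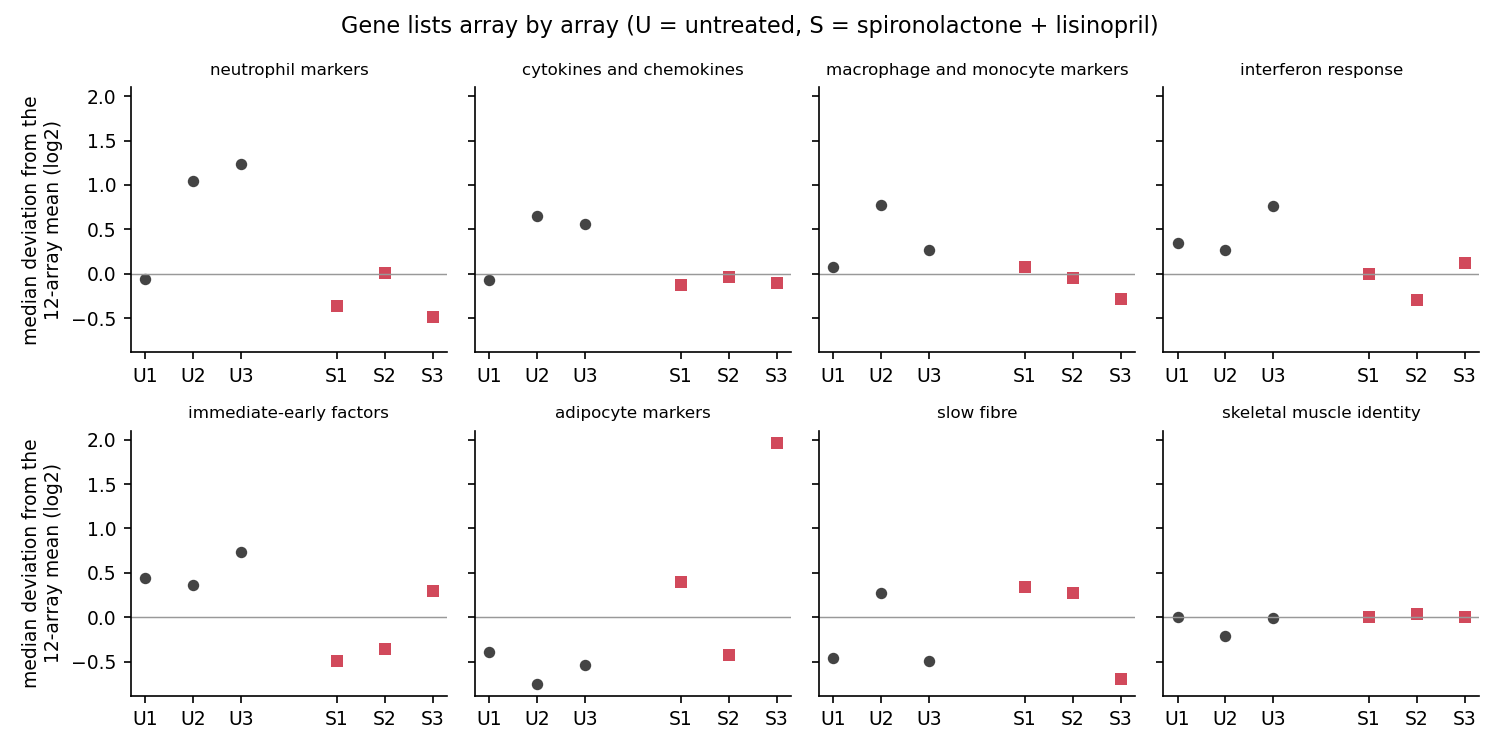
Median deviation of 8 gene lists from each gene's mean over the 12 arrays (y axis, log2) in untreated arrays (U1 to U3, circles) and spironolactone plus lisinopril arrays (S1 to S3, squares). Neutrophil markers and cytokines are high in U2 and U3 but not in U1, and adipocyte markers are high in S3.

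Adipocyte markers were the list farthest above 0. All 23 measured lay above 0, 6 without overlap, with a median of 1.26 and 0 past the threshold. Ucp1, the uncoupling protein of brown and beige fat, was at 4.85, 4.86 and 4.85 untreated and at 7.09, 6.74 and 10.67 treated (3.31 ± 0.77, adjusted p = 0.151). The lipid-synthesis enzyme genes Scd1 (14.78, 14.65 and 14.72 against 17.68, 16.06 and 18.64) and Dgat2 (2.30 ± 0.75, adjusted p = 0.202) did not overlap either. Adipoq, the adiponectin gene (1.59 ± 0.74), and Plin1, which coats lipid droplets (7.27, 6.62 and 6.86 against 8.18, 7.09 and 10.26), overlapped between groups. Treated array 3 was the highest array in each of these genes. The list's median level was 11.35 in that array, 10.15 and 9.19 in treated arrays 1 and 2, and between 8.39 and 9.24 in untreated arrays. Without treated array 3 the median difference was 0.62, and the part of fat tissue in the samples was not tested.

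Genes of muscle fibres lay slightly above 0. Myogenesis and regeneration had a median of 0.35 over 28 measured genes (0.19 without untreated array 3, 0.48 without untreated array 2), 5 of them higher and 1 lower without overlap, with 0 past the threshold. The muscle transcription factor Mef2c was at 13.89, 13.45 and 13.70 untreated and at 14.47, 14.42 and 14.27 treated (0.71 ± 0.12, adjusted p = 0.0755). Myh8, the perinatal myosin, was at 0.81 (adjusted p = 0.159) without overlap, and Myh3, the embryonic myosin of new fibres, at 1.13 ± 0.58 (adjusted p = 0.356) with overlap. Excitation-contraction genes had a median of 0.35 (0.11 to 0.47 over the alternatives), 22 of 23 above 0 and 6 non-overlapping, with the triadin gene Trdn at 0.55 and the chloride channel gene Clcn1 at 0.59. Neuromuscular junction genes had a median of 0.18 (0.07 to 0.30), with the acetylcholine receptor subunits Chrnb1 (0.60) and Chrnd (0.91) higher in every treated array. Of 20 measured, 4 were non-overlapping and higher and 1 was non-overlapping and lower, Nrg1 (-0.50), which did not pass. The GABA receptor subunit gene Gabre was at 5.98, 5.81 and 5.73 against 6.40, 6.58 and 6.32 (0.59 ± 0.10, adjusted p = 0.0683), while the 16 measured GABA receptor genes had a median of -0.06.

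Fast-fibre genes (19 measured) had a median of 0.06 (-0.01 to 0.16 over the alternatives), and slow-fibre genes (19 measured) one of 0.13 (-0.02 to 0.54). Slow-fibre genes differed among treated arrays: Myh7, the slow myosin, was at 8.84 and 8.70 in treated arrays 1 and 2 but at 6.07 in array 3, below all untreated arrays (6.72, 7.55 and 6.82). Myh4 and Acta1 shared identical values at the top of the table, 19.91 to 19.93, and give no usable difference.

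For fatty acid oxidation, 12 of 27 genes were higher and 1 was lower without overlap, with a median of 0.35 (0.17 to 0.40 over the alternatives) and 0 past the threshold. Acadm, a dehydrogenase of medium-chain fatty acids, was at 12.26, 11.74 and 11.86 untreated and at 12.45, 12.52 and 12.84 treated (0.65 ± 0.17, adjusted p = 0.167). Hadhb (0.51) and Etfa (0.46) were likewise higher in every treated array, and the uncoupling protein gene Ucp3 (-1.45 ± 0.38, adjusted p = 0.166) was lower in every treated array. Of the 27, 21 lay above 0 and 6 below. Angptl4 (-1.70), Pdk4 (-1.63) and Plin2 (-0.75) were also below 0, with overlap between groups. Mitochondrial genes had a median of 0.16 (0.06 to 0.24) over 34 genes, 8 of them higher without overlap, among them the coactivator Ppargc1b (0.74 ± 0.13, adjusted p = 0.0755), Cyc1 (0.50) and Cs (0.50). Of the 34, 26 lay above 0 and 8 below, among the latter Ppargc1a (-0.55), which overlapped between groups.

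None of the genes listed for the drugs' own targets passed the threshold. Of 19 genes known to respond to the mineralocorticoid receptor, 0 passed, and the median was -0.22. Sgk1, the aldosterone-induced kinase, was at 11.55, 10.79 and 11.04 untreated and at 10.11, 10.90 and 11.37 treated (-0.34 ± 0.28, adjusted p = 0.56), with the groups overlapping. The receptor gene Nr3c2 was at 0.27 (adjusted p = 0.403). Of the 19, 6 were lower and 1 higher without overlap, against 13.1% and 7.35% of all clusters, shares that depended on scaling and signal. The 1 that was higher was Rasl12 (0.56, adjusted p = 0.157). Those that were lower were Adamts1, Ccn2 (-1.30 ± 0.44, adjusted p = 0.215), Cnksr3 (-0.32), Scnn1a (-0.22), Scnn1b (-0.22) and Scnn1g (-0.20). Of 20 genes of the renin-angiotensin-kinin system 0 passed, with a median of -0.07: Ace was at -0.16 (adjusted p = 0.767), Agt at 0.12, Agtr1a at -0.05 and Agtr2 at 0.46 (adjusted p = 0.222).

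Of 33 glucocorticoid-responsive genes Mt1 fell and 32 did not pass, with a median of -0.44. In all, 29 lay below 0 and 4 above, with 8 lower and 1 higher without overlap. Cebpd (-2.34), Mt2 (-1.34), Nfkbia (-1.33) and Bcl2l1 (-0.61, adjusted p = 0.107) were lower in every treated array without passing. The 1 that was higher was Sesn1 (0.68). Tsc22d3 (-0.84 ± 0.31, adjusted p = 0.241) and Fkbp5 (-0.40 ± 0.31, adjusted p = 0.531) overlapped between groups, and Klf15 was at 0.05. The glucocorticoid receptor gene Nr3c1 was at 0.23 (adjusted p = 0.45) and Hsd11b1, which regenerates active glucocorticoid, at 0.30 ± 0.45. Mt1 also stands in the metallothionein list and Nfkbia in the NF-kappa B list, so these lists share genes.

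Of 42 measured matrix genes, Thbs1 fell and 41 did not pass, with a median of -0.06 (-0.13 to 0.0046 over the alternatives). Besides Thbs1, 4 were lower by a fold of 2 or more without passing: the matricellular genes Ccn2 (-1.30) and Ccn1 (-1.27), the metalloproteinase gene Mmp3 (-1.16) and the inhibitor gene Timp1 (-1.04). Col1a1, the main fibrillar collagen gene, was at 16.90, 16.88 and 16.88 untreated and at 16.78, 16.93 and 16.83 treated (-0.04 ± 0.07, adjusted p = 0.797). Tgfb1 was at -0.24 with overlap. Of 16 genes of the urokinase and coagulation systems, Plaur fell and the median was -0.35 (-0.47 to -0.17 over the alternatives), with Tfpi2 (-0.96), F2r (-0.58) and Thbd (-1.28) lower in every treated array.

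The atrophy genes had a median of 0.02 over 27 measured, with 0 past the threshold. The ubiquitin ligase genes Fbxo32 (-0.90 ± 0.36, adjusted p = 0.263) and Trim63 (-0.56 ± 0.26, adjusted p = 0.322) overlapped between groups. The stress-induced sestrin gene Sesn1 was at 0.68 (adjusted p = 0.181) without overlap.

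**Figure D5:**
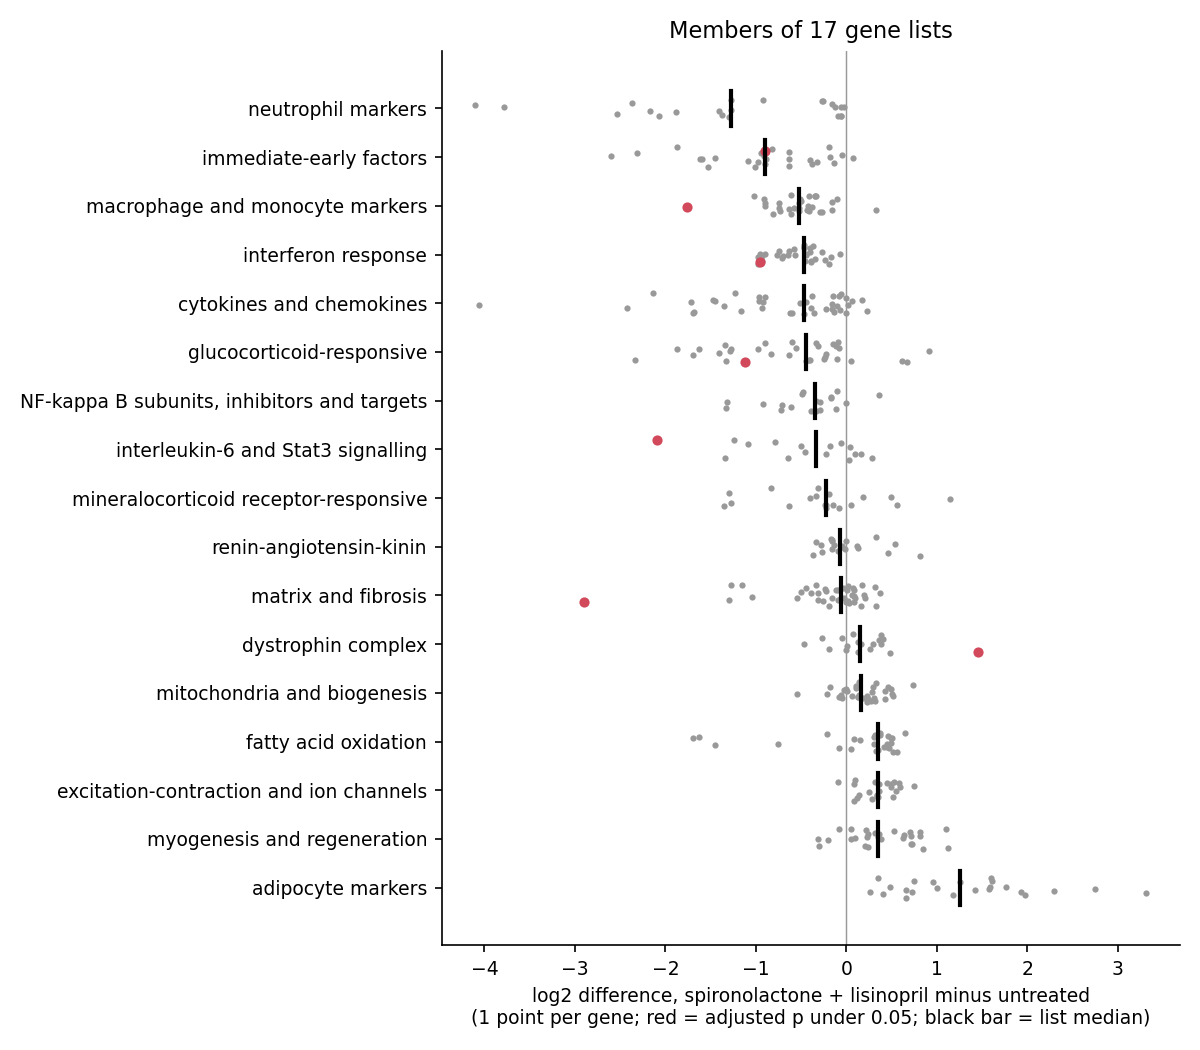
Difference (x axis, log2, spironolactone plus lisinopril minus untreated) of each measured gene in 17 lists, with list medians as black bars and genes past the adjusted threshold in red. Neutrophil markers have the lowest median (-1.28) and adipocyte markers the highest (1.26), both with no red point.

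Direct comparison asked which of these values differed between spironolactone plus lisinopril and the other treatments. Both combinations and prednisolone are set against the same 3 untreated arrays, so likeness of those differences is not independent, and they are given only side by side. Against eplerenone plus lisinopril 0 clusters (0.0%) passed in limma (smallest adjusted p = 0.998), with 1365 at an unadjusted p under 0.05, and the doses of the antagonists differed. A p that misses the threshold does not show that the drugs act alike. For Dbp the eplerenone arrays were at 10.54, 10.69 and 9.81, and spironolactone minus eplerenone was 0.65 with a 95% interval of 0.09 to 1.21. For Per3 they were at 7.59, 7.87 and 7.35, with a difference of 0.65 (0.28 to 1.03). In both genes all spironolactone arrays were above all eplerenone arrays. Hlf differed by 0.84 (0.47 to 1.21), Npas2 by -1.02 (-1.54 to -0.49) and Sntb1 by 0.61 (0.14 to 1.09), none of them past the adjusted threshold. Intervals spanned 0 for Thbs1 (-1.04 to 0.78), Il6 (-0.76 to 0.43), Zfp36 (-1.03 to 0.41) and Cd14 (-0.42 to 0.49).

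Against prednisolone 250 clusters (0.822%) passed, 137 higher and 113 lower with spironolactone plus lisinopril, a split of 90 and 112 after quantile normalization and of 285 and 87 with array medians made equal. Prednisolone was given in drinking water and not in pellets, so drug and route cannot be told apart here. Of the 25 clusters called against untreated, Dbp and Per3 also passed against prednisolone. The prednisolone arrays were at 7.80, 8.03 and 7.72 for Dbp and at 6.15, 6.16 and 6.19 for Per3, below every untreated array. The differences were 3.15 ± 0.25 and 2.09 ± 0.17 (adjusted p = 0.000686 for each). Other genes of the clock lists passed as well. Nr1d2 (1.68, adjusted p = 0.0105), Per2 (1.62, adjusted p = 0.0332) and Hlf (1.11, adjusted p = 0.0208) were higher than with prednisolone. Arntl (-2.42, adjusted p = 0.00128), Npas2 (-2.29, adjusted p = 0.00427) and Clock (-0.50, adjusted p = 0.0123) were lower.

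Fbxo32 was lower than with prednisolone by 2.42 ± 0.36 (adjusted p = 0.0191), Agt by 0.95 (adjusted p = 0.0396) and Mt2 by 1.28 (adjusted p = 0.0439), and Col1a1 was higher by 0.62 ± 0.07 (adjusted p = 0.00639). Of the 33 interferon genes 5 were higher than with prednisolone and 0 lower, Trim30a among them at 1.04 (adjusted p = 0.0438). Nr1d1 (0.31), Sntb1 (0.28), Thbs1 (0.52), Il6 (0.08), Zfp36 (0.19) and Cd14 (-0.22) did not pass. The count of 250 was 25 without spironolactone plus lisinopril array 1, 55 without array 2 and 124 without array 3. It was 30 without prednisolone array 1 and 23 without prednisolone array 2.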

How the data were processed

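RNA from 12 quadriceps samples, 3 per group, was hybridised to GeneChip arrays after labelling with the WT PLUS kit, per the labels' protocols. The deposited series table holds log2 signals, which the authors made with RMA; the submitters' processing notes also name Affymetrix Expression Console and Transcriptome Analysis Console. Neither their versions nor a build is stated: not given in the sources used here. Values reach 19.93, above the 16 that a scanner's log2 range allows, and 1.27% to 1.34% of clusters per array lie above it, so distances at the top of the scale may not be plain log2 folds. Depth does not apply to arrays, and 3 arrays per group limit the precision.

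Of 65587 clusters, 30412 have exactly 1 symbol in the platform annotation, 2118 have several and 33057 are unnamed here; 827 symbols were updated. Where a symbol had several clusters, the one with the highest mean was described. Groups came from the sample titles. A limma group-means fit (limma 3.58.1, R 4.3.3) over the 12 arrays gave each difference, with Benjamini-Hochberg adjustment over the 30412 clusters and a threshold of 0.05. The fit was tested on simulated data. Summaries used pandas 2.3.3 under Python 3.11.15.

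Members and the 46 gene lists were chosen with earlier results of these data known. Genes were named by rule: every cluster past the threshold except predicted-gene, Rik and small RNA symbols; the next 20 by p among those with a fold of at least 2 and no overlap; in each list the members past the threshold and the 4 with the smallest p; the highest marker; and a fixed set of drug-related genes. Mir99a and its neighbours were added. Further list members outside the rule were named after their values were seen, among them Sgca, Sntb2, Clock, Cry1, Cry2, Myh7, Timp1 and Pdk4. Not every gene that the rule gives is described. Promoters and microRNAs came from RefSeq tables (GRCm38.p6). Alternatives covered the samples fitted, scaling, filters on dim clusters, the variance model, replicate number as a block, all clusters, and each array left out.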

Additional observations from a re-analysis of the deposited data

Results flagged for a closer look

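Clusters without exactly 1 symbol were outside the comparisons above. When all 65587 clusters were tested together, 4 of these 35175 were among the 11 that passed for spironolactone plus lisinopril against untreated (limma, Benjamini-Hochberg adjusted p = 0.0474). Of the 4, 3 were lower and 1 was higher, with log2 differences from -0.92 to 1.62. They were flagged because they lie outside the main measurement, and no gene is named for them here.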

How the results depend on the processing

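For spironolactone plus lisinopril against untreated, the count of 25 was 0 with only these 2 groups fitted, 11 with all clusters tested and 0 with untreated arrays 2 and 3 left out (2198 at an unadjusted limma p under 0.05). It ran from 0 to 534 with each array left out. All 25 were among the 534 without untreated array 1 and among the 165 without treated array 3. Other scalings, filters and variance models gave 20 to 29. Against eplerenone plus lisinopril every alternative gave 0 in limma, with 717 to 2093 clusters at an unadjusted p under 0.05. Against prednisolone the count of 250 was 37 with only these 2 groups, 414 without clusters below the lower quartile of signal, 619 without those below its median, 115 with all clusters, and 23 to 223 with each array left out. The 6216 non-overlapping clusters became 3132 without clusters below the median signal, where fewer clusters are tested, and 8376 to 11460 with each array left out, where fewer arrays must be separated. The 241 clusters at a fold of 2 became 225 to 409 with each array left out (409 without untreated array 1) and 216 to 240 under the other alternatives. The cause of the other shifts was not tested. No named gene past the threshold changed sign.

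With replicate number as a block, the counts were 1 against untreated and 75 against prednisolone. Deviations of same-numbered untreated and treated arrays correlated at -0.19, 0.12 and 0.07, so the numbers were not taken as pairing.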

Other observations

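Several gene groups not described above held no call or only calls already given. Of 17 metallothionein and zinc transporter genes, Mt1 fell and 6 were non-overlapping and lower, among them Mt4 (-0.53, adjusted p = 0.0755) and the zinc importer gene Slc39a14 (-1.66, adjusted p = 0.151), with a median of -0.17. Of 14 T cell co-stimulation genes Cd80 fell, and Ctla4 (-0.39) and Tnfrsf9 (-0.31) were lower in every treated array without passing. Of 20 endothelial markers 0 passed, with a median of -0.29 that was -0.07 without untreated array 3 and -0.48 without untreated array 2. Nos3, the endothelial nitric oxide synthase gene, was at -0.37 (adjusted p = 0.257) and did not overlap, as was Sox17 at -0.32.

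Heat shock genes (22 measured, 0 past the threshold) had a median of -0.14 that became 0.27 from untreated array 1 alone. Dnajb1 was at -0.51 (adjusted p = 0.293). Cell cycle genes (23 measured, 0 past) had a median of 0.10 that turned to -0.09 without treated array 1 and -0.02 without untreated array 1 and was 0.32 without treated array 3, with the proliferation marker Mki67 at 0.55 (adjusted p = 0.569). In glucose and glycogen metabolism (26 measured, 0 past, median 0.08), Irs2 lay low and Irs1 was at 0.68 (adjusted p = 0.248). Among 12 mast cell markers Hdc was low while the protease gene Cpa3 was at 0.82 (adjusted p = 0.333), and the median was 0.04. The lists for fibroblasts and progenitors (median 0.06), smooth muscle and pericytes (0.10), Schwann cells and nerve (0.04), tendon (0.11) and sarcolemma repair (0.12) each had 0 genes past the threshold. Over the alternatives the medians of mast cell, glucose, fibroblast, smooth muscle, Schwann cell and sarcolemma repair genes each took both signs.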
